A study of Mus musculus with 12 samples.

Results

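Integrins are the cell's receptors for extracellular matrix and for adhesion proteins on other cells. The genes described here encode 10 integrin subunits: the alpha chains Itga2, Itga4, Itga5, Itga6, Itgal and Itgav, and the beta chains Itgb1, Itgb2, Itgb3 and Itgb7. They were taken by gene symbol from the table of gene levels, in which each matched a single gene ID, so that they are 10 of the 40481 genes listed. Their RNA was measured in cultured mouse hematopoietic stem cells (HSCs), in 12 libraries that form 4 groups of 3. The WT bone marrow and ETV6-RUNX1 bone marrow groups came from mice 8 weeks old, and the WT fetal liver and ETV6-RUNX1 fetal liver groups came from embryos at E14.5. ETV6-RUNX1 cells carried an inducible form of the fusion, named iE/R in the design text, which joins the genes of 2 transcription factors and is known from childhood B-cell leukemia. Every group, WT included, spent 3 days in HSC expansion medium containing 1 µg/mL doxycycline, so no group shows the levels without the drug or before culture. The inducible allele's position and promoter, the sort gate and the number of animals behind a library are not given in the sources used here.

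An integrin is a pair of 1 alpha and 1 beta chain, and the pairing sets what it binds. Itgb1 pairs with many alpha chains to form receptors for collagen, laminin and fibronectin, Itgb2 is the beta chain of the leukocyte integrins that bind ICAM proteins, Itgb3 pairs with Itga2b to form the fibrinogen receptor of platelets, and Itgb7 forms receptors used in homing to the gut. In blood stem cells, integrins are known for holding the cells in their niche and for their homing after transplantation, and their grip is switched on from inside the cell by talin and kindlin proteins.

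The 250 bases before the RefSeq start site (GRCm38.p6) of 4 alpha chain genes, all those in the RefSeq table, are shown because those genes were higher together in ETV6-RUNX1 fetal liver cells and the fusion is made of an ETS and a RUNX factor. Sequences run 5′ to 3′ on the gene's strand. Capitals mark matches to letters known from RUNX sites (TGTGGT or, less often, TGCGGT) or from ETS sites (CGGAAG, the similar GGAAGT which can overlap it, and the longer ACAGGAA), searched on both strands. They lie at chr13:114932101-114932350 on the minus strand for Itga2, at chr2:79255176-79255425 on the plus strand for Itga4, at chr15:103366792-103367041 on the minus strand for Itga5 and at chr2:83724147-83724396 on the plus strand for Itgav.
Itga2: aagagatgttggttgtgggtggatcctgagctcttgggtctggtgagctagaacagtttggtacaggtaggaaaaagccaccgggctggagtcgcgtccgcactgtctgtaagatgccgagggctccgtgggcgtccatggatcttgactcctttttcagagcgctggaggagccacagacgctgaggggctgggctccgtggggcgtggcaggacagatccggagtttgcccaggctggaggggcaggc
Itga4: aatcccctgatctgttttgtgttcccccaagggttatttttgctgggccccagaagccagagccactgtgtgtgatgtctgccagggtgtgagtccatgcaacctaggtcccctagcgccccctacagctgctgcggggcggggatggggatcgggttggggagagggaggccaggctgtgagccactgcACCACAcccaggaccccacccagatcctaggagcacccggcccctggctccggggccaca
Itga5: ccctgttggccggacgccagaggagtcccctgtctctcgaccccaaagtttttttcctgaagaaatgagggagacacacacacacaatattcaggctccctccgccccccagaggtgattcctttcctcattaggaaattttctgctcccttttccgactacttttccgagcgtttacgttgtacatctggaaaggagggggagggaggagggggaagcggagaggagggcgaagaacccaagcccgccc
Itgav: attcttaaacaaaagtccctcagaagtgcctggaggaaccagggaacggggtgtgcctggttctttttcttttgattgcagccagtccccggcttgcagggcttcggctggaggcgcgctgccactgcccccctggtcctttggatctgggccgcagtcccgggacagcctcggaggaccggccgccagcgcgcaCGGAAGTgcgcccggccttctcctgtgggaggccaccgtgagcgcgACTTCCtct

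The Itga4 window held 1 match, ACCACA, which is TGTGGT on the other strand, at chr2:79255366-79255371, and its first base lies 60 bases before the start. In Itgav the matches CGGAAG and GGAAGT overlap in a single run that begins 55 bases before the start, and ACTTCC, which is GGAAGT on the other strand, begins 9 bases before it. The Itga2 and Itga5 windows held no match to these letters. Binding of the fusion to any of these windows was not tested. The RefSeq table holds 6 of the 10 genes. Over those 6, with 50 bases after the start added to each window, TGTGGT was found in 1 (Itga4), CGGAAG in 1 (Itgav) and GGAAGT in 2 (Itgav and Itgb7). Neither TGCGGT nor ACAGGAA was found in any of them, nor were the GATA letters AGATAA or the NF-kB letters GGGAAA. Among all 32851 promoters in the table, with windows of that length, TGTGGT occurred in 16.8%, TGCGGT in 6.45%, CGGAAG in 16.9%, GGAAGT in 23.8%, ACAGGAA in 8.67%, AGATAA in 11.2% and GGGAAA in 25.2%.

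Levels are in CPM, a gene's reads over the total of its library on a common scale. Library totals ran from 32.3 to 64.5 M reads, so that 3 reads, taken as the limit that a count of 0 allows, are worth 0.047 to 0.093 CPM (counting error only). All 16 HSC markers listed, such as Kit and Procr, reached a mean of 1 CPM in every group. Their summed levels were 2442 to 2959 CPM in WT fetal liver and 5361 to 5796 CPM in ETV6-RUNX1 fetal liver. In bone marrow they were 2711 to 3775 CPM in WT and 3865 to 4331 CPM in ETV6-RUNX1 cells. Megakaryocyte markers were also present in every library and are given beside Itgb3. Lymphoid and stromal markers summed to at most 93.1 CPM in any library, with the T cell gene Cd3e at 0 in all. Erythroid markers (12 genes, led by Hbb-bt, none at 0 in a whole group) summed to 785 to 1060 CPM in WT and 1511 to 2244 CPM in ETV6-RUNX1 fetal liver, and to 273 to 548 and 447 to 646 CPM in bone marrow, with 5, 8, 5 and 5 of them at a mean of 1 CPM. Endothelial markers (10 genes, led by Tie1, with Sox17 at 0 in WT bone marrow) summed to 148 to 189 and 225 to 266 CPM in fetal liver and 156 to 247 and 274 to 318 CPM in bone marrow in the same order, with 6, 6, 4 and 4 at 1 CPM. Both sums were thus higher in ETV6-RUNX1 than in WT fetal liver, as most of the subunits were. Hepatoblast markers were lower there, at 86.5 to 91.4 CPM in WT and 49.9 to 68.5 CPM in ETV6-RUNX1 cells. In bone marrow they were higher with the fusion, at 111 to 146 and 165 to 188 CPM. Mast cell and basophil markers overlapped in fetal liver, at 94.7 to 137 CPM in WT and 78.5 to 115 CPM in ETV6-RUNX1 cells. The part of these cell types in the subunit differences was not tested. Runx1 averaged 121 CPM with WT and 227 CPM with the fusion in fetal liver, and 96.3 and 170 CPM in bone marrow, but the table does not separate the fusion from the genes of the mouse. The share of reads assigned to processed pseudogenes, which are retrocopies that reads of the parent gene can be assigned to, ran from 1.23% to 1.91% in ETV6-RUNX1 fetal liver, 1.65% to 2.36% in WT fetal liver, 2.12% to 2.55% in ETV6-RUNX1 bone marrow and 1.60% to 2.23% in WT bone marrow. Replicates carry a number only, and nothing says that they came from separate animals or cultures, so p-values measure only the spread between these libraries, which may be technical.

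All 10 subunits passed the filter on low levels (1 CPM in at least 3 libraries). Per kilobase of exon, Itgb3 had the highest level of the 10 in ETV6-RUNX1 fetal liver, at 166 ± 33.9 CPM per kb (SD, n = 3), followed by Itgb2 at 59.3 ± 9.19, Itgb1 at 40.5 ± 2.17 and Itga6 at 34.5 ± 1.65 CPM per kb. In WT bone marrow the highest was Itgb1, at 23.7 ± 5.18 CPM per kb, ahead of Itgb2 at 19.1 ± 3.20 CPM per kb. At the low end, Itga2 lay between 0.0549 and 0.905 CPM per kb as group means, and Itgal between 0.426 and 1.24 CPM per kb. The plot of the 10 subunits by library shows these levels in CPM.

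**Figure D1:**
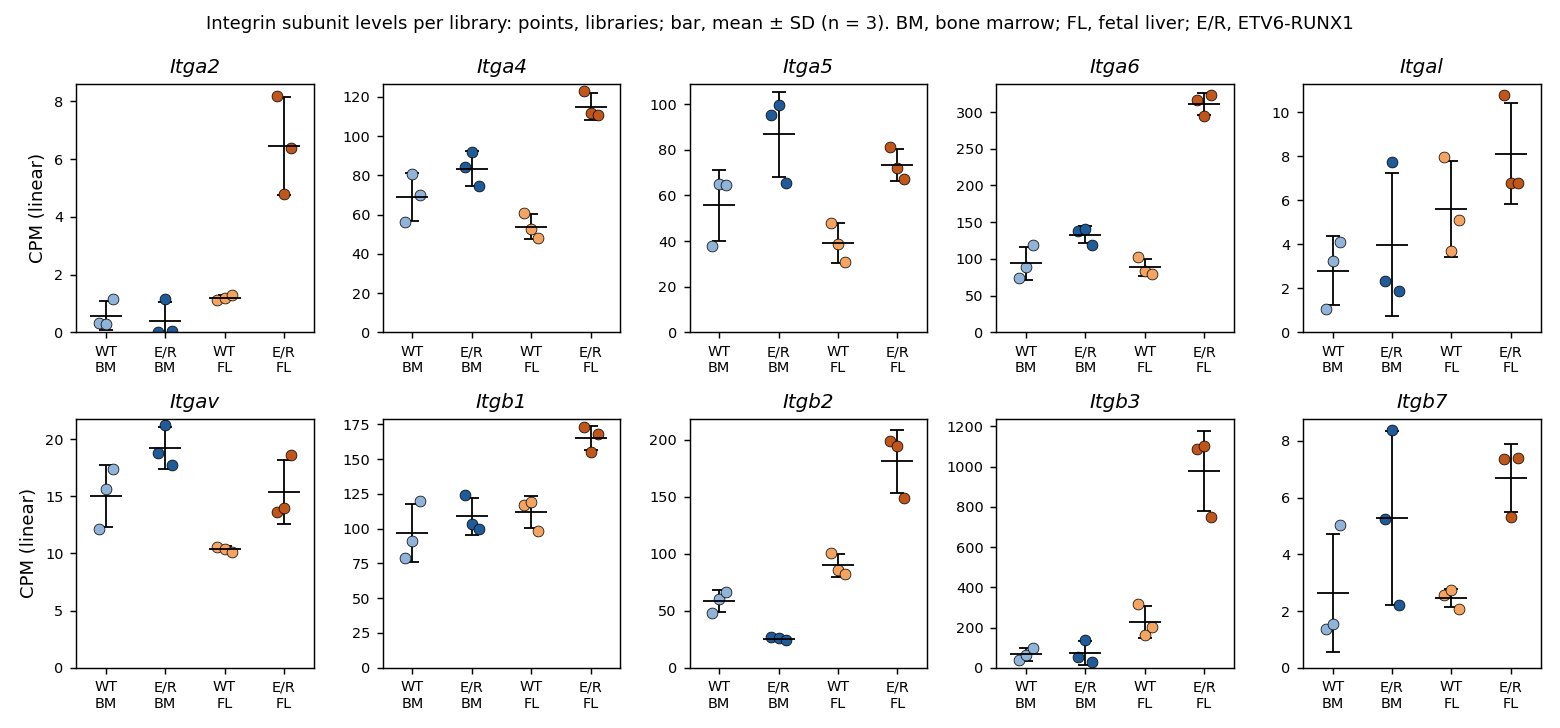
CPM of each integrin subunit in the 12 libraries, by group (WT or ETV6-RUNX1, bone marrow or fetal liver); points are libraries and bars the mean ± SD of 3. In fetal liver the ETV6-RUNX1 points lie above the WT points in every panel except Itgal, and in the Itgb2 panel the ETV6-RUNX1 bone marrow points, at 24.0 to 27.0 CPM, are the lowest of all.

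The first question is what the fusion gene changes in fetal liver cells. ETV6-RUNX1 fetal liver cells had more RNA of 9 of the 10 integrin subunits than WT fetal liver cells, and none was lower; Itgal did not pass the test. Itgb3 was 4.26 times as high, Itga6 3.52 times and Itga2 5.36 times, while Itgb1 and Itgav were under 1.5 times as high. A call here and below is an adjusted p under 0.05 in limma on log2(CPM + 1), adjusted by the Benjamini-Hochberg method over all 14271 genes tested. Of those genes 43.1% were called in this comparison and 24.8% were called higher. The subunits' median log2 fold change was 1.04, beside 0.08 over all genes. In bulk libraries like these, a higher share of cells with a transcript and more transcript per cell cannot be told apart.

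Among the alpha chains, Itga6, a laminin receptor chain (chromosome 2, 71745616 to 71858416, plus strand; this and the positions below are from GENCODE M21 on GRCm38), measured 102, 83.3 and 80.1 CPM in the WT fetal liver libraries and 316, 294 and 323 CPM in the ETV6-RUNX1 ones. The groups were far apart, and every ETV6-RUNX1 fetal liver library was above every other library of the study. The log2 fold change was 1.81 ± 0.16 (SE; limma adjusted p 1.06e-06). Itga4 (chromosome 2, 79255426 to 79333123, plus strand), which with Itgb1 forms the receptor for VCAM1 and fibronectin, measured 60.9, 52.7 and 48.2 CPM in WT and 123, 112 and 111 CPM in ETV6-RUNX1 cells. The groups did not overlap, and the WT fetal liver group had the lowest mean of the 4. Its log2 fold change was 1.09 ± 0.15 (limma adjusted p 6.62e-05). The promoter with the RUNX letters shown above is that of Itga4, and the part of those letters in its level was not tested.

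Itga2 (chromosome 13, 114833081 to 114932100, minus strand), the alpha chain of a collagen receptor, measured 1.12, 1.19 and 1.30 CPM in WT and 8.19, 4.78 and 6.39 CPM in ETV6-RUNX1 fetal liver cells, which is 52 to 84 reads against 213 to 390 reads per library. All WT libraries were low and close together, and the ETV6-RUNX1 libraries were all higher. The log2 fold change was 1.73 ± 0.30 (limma adjusted p 0.000361), and DESeq2 on the recovered reads gave 2.34 without a call (adjusted p 0.106). Itga5, the alpha chain of the main fibronectin receptor (chromosome 15, 103344286 to 103366763, minus strand), measured 48.1, 38.9 and 30.8 CPM in WT and 81.0, 71.8 and 67.2 CPM in ETV6-RUNX1 cells. The groups were separate, with a log2 fold change of 0.90 ± 0.23 (limma adjusted p 0.00523).

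Itgav (chromosome 2, 83724397 to 83806916, plus strand), whose integrins bind vitronectin and other proteins with an RGD motif, had the tightest WT group, at 10.6, 10.4 and 10.1 CPM, against 13.6, 14.0 and 18.6 CPM. ETV6-RUNX1 replicate 3 stood above the other two of its group. The log2 fold change of 0.52 ± 0.18 was called (limma adjusted p 0.0313), but not under quantile normalization, at 0.23. The call was also lost when WT fetal liver replicate 1, 2 or 3 or ETV6-RUNX1 fetal liver replicate 3 was left out, with values of 0.38 to 0.53 (limma adjusted p 0.0581 to 0.126). Itgal, the alpha chain of the leukocyte integrin that binds ICAM1 (chromosome 7, 127296260 to 127335138, plus strand), measured 7.98, 3.71 and 5.10 CPM in WT and 10.8, 6.77 and 6.81 CPM in ETV6-RUNX1 cells. WT replicate 1 lay above 2 of the ETV6-RUNX1 libraries. The log2 difference was 0.49 ± 0.42 (limma adjusted p 0.364), with a call only under limma array weights (0.83, adjusted p 0.0321).

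Of the 4 beta chains among the 10 subunits, Itgb3 (chromosome 11, 104608000 to 104670476, plus strand) had the largest log2 fold change. It measured 318, 165 and 204 CPM in WT and 1086, 1101 and 747 CPM in ETV6-RUNX1 fetal liver cells, with a log2 fold change of 2.12 ± 0.46 (limma adjusted p 0.00207). The lowest ETV6-RUNX1 library was well above the highest WT library. Itgb2 (chromosome 10, 77530252 to 77565708, plus strand) measured 101, 85.6 and 82.6 CPM in WT and 199, 195 and 149 CPM in ETV6-RUNX1 cells. The groups were apart, and the log2 fold change was 1.00 ± 0.16 (limma adjusted p 0.000204).

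Itgb1, the beta chain that most of these alpha chains pair with (chromosome 8, 128685654 to 128733200, plus strand), measured 117, 119 and 98.5 CPM in WT and 173, 155 and 168 CPM in ETV6-RUNX1 fetal liver. It rose less than Itga4 and Itga6 on the log2 scale, by 0.57 ± 0.16 (limma adjusted p 0.00939); those differences between genes were not tested. Itgb7 (chromosome 15, 102215995 to 102231944, minus strand) was low, at 2.55, 2.74 and 2.09 CPM in WT and 7.37, 5.31 and 7.38 CPM in ETV6-RUNX1 cells. Its groups did not overlap, and its log2 fold change was 1.14 ± 0.38 (limma adjusted p 0.0247). Leaving out WT fetal liver replicate 1 or 3 or ETV6-RUNX1 fetal liver replicate 1 or 3 took that adjusted p to 0.051 to 0.0757, at 1.06 to 1.16, and all genes with a read tested together or quantile normalization took it to 0.101 and 0.0509.

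In fetal liver 9 of the 10 subunits had no overlap between the 3 ETV6-RUNX1 and the 3 WT libraries, all higher in ETV6-RUNX1, and of all genes tested 55.6% had no overlap and 32.3% were higher in that way. An exact permutation test of single genes cannot go below p = 0.1 with 3 libraries against 3, and it gave 0.1 for each of the 9. With the pseudogene share added to the fit as a covariate, 5 subunits were called instead of 9: Itga5 at 0.48, Itgav at 0.50, Itgb1 at 0.45 and Itgb7 at 0.89 lost the call (limma adjusted p 0.0688 to 0.165), Itgb3 kept it at 1.32, and Itgal turned to -0.15. The part of this share in the differences was not tested further. Itga4 and Itgav overlap genes on the opposite strand (Cerkl at 1.17 to 6.99 CPM and Gm13684 at 0.605 to 4.04 CPM), and since the use of strand in counting is not stated, their reads could be split.

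In bone marrow, where the same genotypes were compared in adult cells, 2 of the 10 subunits passed the test. Itgb2 fell to 0.439 of its WT level, Itga6 rose 1.41-fold, and the other 8 subunits did not pass the test. That is 1 of 10 called higher and 1 lower, and over all genes 14.4% were called higher and 4.93% lower, 19.4% in all. The median log2 difference of the subunits was 0.30, beside 0.13 over all genes, and median-of-ratios scaling moved the latter to 0.01, so a value near 0.13 is that of a typical gene.

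Itgb2 measured 47.7, 60.6 and 66.8 CPM in WT and 27.0, 25.9 and 24.0 CPM in ETV6-RUNX1 bone marrow. The ETV6-RUNX1 libraries were close together and all below the WT ones, and the log2 fold change was -1.15 ± 0.16 (limma adjusted p 0.000449). This call held in all alternatives tried, between -1.34 and -0.90. Itga6 measured 73.9, 88.9 and 119 CPM in WT and 138, 141 and 119 CPM in ETV6-RUNX1 cells. The lowest ETV6-RUNX1 library and the highest WT library were nearly level, with a log2 fold change of 0.52 ± 0.16 (limma adjusted p 0.0372). Its call was lost in 12 of 23 alternatives, among them edgeR (0.35, adjusted p 0.121), DESeq2 (0.36), median-of-ratios scaling (0.38) and the fit of the 6 bone marrow libraries alone (0.52). Without WT bone marrow replicate 1 or 2, WT fetal liver replicate 2, ETV6-RUNX1 bone marrow replicate 1 or 2 or ETV6-RUNX1 fetal liver replicate 1 it was 0.36 to 0.52 (limma adjusted p 0.0503 to 0.122).

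Other subunits of the bone marrow comparison stayed above the threshold. Itga5 measured 37.7, 64.9 and 64.5 CPM in WT and 95.3, 99.4 and 65.5 CPM in ETV6-RUNX1 bone marrow, a log2 difference of 0.65 ± 0.23 (limma adjusted p 0.0578). ETV6-RUNX1 replicate 3 was level with 2 WT libraries, and without it the value was 0.84 with an adjusted p of 0.0235. Itgav measured 12.1, 15.6 and 17.4 CPM in WT and 18.8, 21.2 and 17.7 CPM in ETV6-RUNX1 cells (log2 difference 0.35, limma adjusted p 0.187); the groups only just did not overlap. Itga4, at 56.2, 80.6 and 69.9 against 84.1, 92.0 and 74.5 CPM, overlapped (0.28, limma adjusted p 0.200).

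Itgb1 measured 79.2, 90.9 and 120 CPM in WT and 124, 103 and 99.9 CPM in ETV6-RUNX1 bone marrow, a log2 difference of 0.18 (limma adjusted p 0.430). WT replicate 3 lay among the ETV6-RUNX1 libraries. Itgb3 measured 38.2, 63.5 and 100 CPM in WT and 54.8, 138 and 27.1 CPM in ETV6-RUNX1 cells. ETV6-RUNX1 bone marrow thus held both the highest and the lowest Itgb3 value of adult cells, the means were 67.3 ± 31.2 and 73.3 ± 57.7 CPM, and the log2 difference was -0.08 ± 0.46 (limma adjusted p 0.924). Without ETV6-RUNX1 replicate 2 or 3, or any other single library, that difference ran from -0.68 to 0.47.

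Itgal, at 1.05, 3.25 and 4.09 CPM in WT and 2.32, 7.73 and 1.89 CPM in ETV6-RUNX1 bone marrow, and Itgb7, at 1.35, 1.54 and 5.03 against 5.24, 8.38 and 2.23 CPM, varied several-fold within each group. Their log2 differences were 0.31 and 0.80 (limma adjusted p 0.638 and 0.151). Itgb7 was called without WT bone marrow replicate 3 (1.23, limma adjusted p 0.0332) or ETV6-RUNX1 bone marrow replicate 3 (1.21, adjusted p 0.0274). Itga2 was the lowest of the 10 subunits there, at 0.324, 0.273 and 1.15 CPM in WT and 0, 1.14 and 0.0309 CPM in ETV6-RUNX1 bone marrow, where 37 reads came from replicate 2, 1 from replicate 3 and none from replicate 1, which allows up to 0.081 CPM there. Its log2 difference was -0.24 ± 0.30 (limma adjusted p 0.608). In all, 3 subunits were higher without overlap (Itga5, Itga6 and Itgav) and Itgb2 was lower without overlap, against 23.6% and 10.9% of all genes tested.

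**Figure D2:**
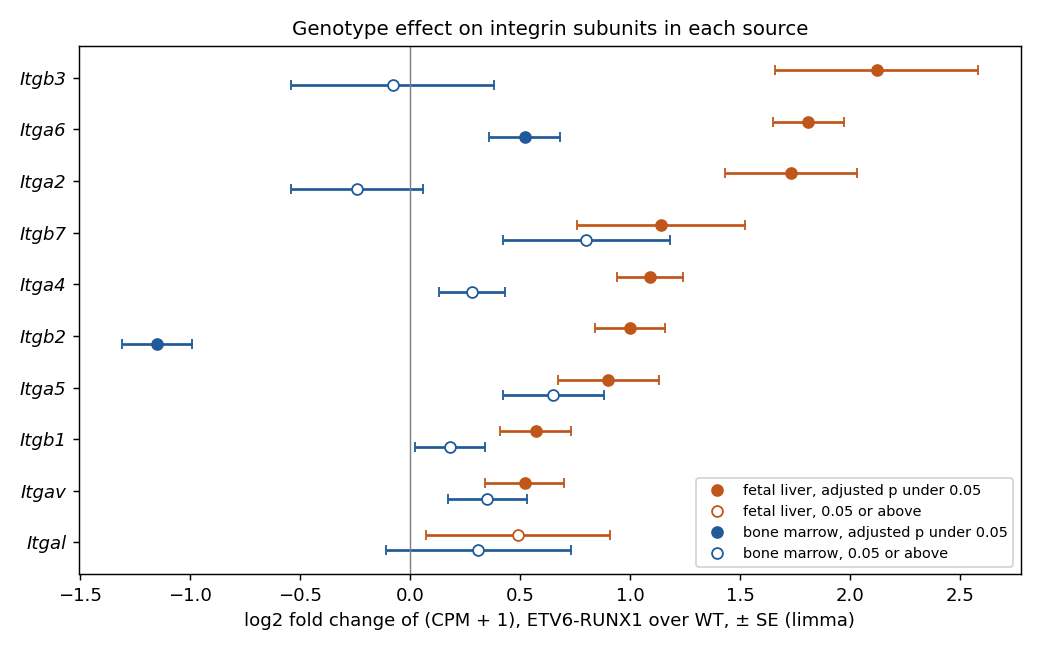
Log2 fold change of (CPM + 1) of each subunit, ETV6-RUNX1 over WT, with its limma standard error, in fetal liver and bone marrow; filled points have an adjusted p under 0.05. All fetal liver values are above 0, from 0.49 for Itgal to 2.12 for Itgb3, while in bone marrow Itgb2 is at -1.15 and Itga6 is the only filled point above 0.

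Whether the genotype effect differed between sources was tested directly, as the fetal liver effect minus the bone marrow effect. It differed for 5 of the 10 subunits, Itgb3, Itgb2, Itga2, Itga6 and Itga4, each time with the higher value in fetal liver, and 9.19% of all genes were called in this test (5.56% with the higher value in fetal liver, 3.62% with the lower). Itgb2 was the only subunit called in opposite directions in the separate comparisons, 1.00 in fetal liver and -1.15 in bone marrow, and its difference was 2.14 ± 0.22 (limma adjusted p 6.13e-05). That call held in every alternative, between 1.61 and 2.31. Itga6 was called higher in both sources, though its bone marrow call was lost in 12 of 23 alternatives. Its rise was larger in fetal liver, by 1.29 ± 0.23 (limma adjusted p 0.00316). The pseudogene share as a covariate left 0.98 (limma adjusted p 0.0769).

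The differences for Itga2 (1.97 ± 0.42, limma adjusted p 0.0101), Itga4 (0.80 ± 0.21, 0.0318) and Itgb3 (2.20 ± 0.65, 0.0487) lost their call under several alternatives. Itgb3 lost its call in 15 of 22 alternatives, among them a pseudocount of 0.1, the replicate block (adjusted p 0.0677), edgeR (0.0752) and DESeq2 (0.0856), with 0.72 under the pseudogene covariate. Leaving out WT bone marrow replicate 2 or 3, WT fetal liver replicate 2 or 3, ETV6-RUNX1 bone marrow replicate 1 or 3 or ETV6-RUNX1 fetal liver replicate 1 or 2 left Itgb3 at 1.65 to 2.19 (limma adjusted p 0.0862 to 0.115). Leaving out the same libraries one at a time also ended the call of Itga4, at 0.68 to 0.82 (limma adjusted p 0.0577 to 0.0898), as did testing all genes with a read and the covariate (0.39). Itga2 lost it with all genes with a read (limma adjusted p 0.0541), edgeR (3.01, adjusted p 0.157), DESeq2 (3.03, 0.261), a pseudocount of 0.1 (3.50) and the covariate (1.80).

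For the remaining 5 subunits the difference between sources did not pass the test: Itgb1 was at 0.38 ± 0.22, Itgb7 at 0.35 ± 0.53, Itga5 at 0.26 ± 0.32, Itgal at 0.18 ± 0.59 and Itgav at 0.17 ± 0.25 (limma adjusted p 0.285 to 0.880). The standard errors of Itgal, Itgb7, Itga5 and Itgb1 leave room for differences of the size seen in Itga4.

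Fetal liver and adult bone marrow cells were then compared within each genotype. These comparisons share their libraries with those above, so their values are set side by side only. In WT cells Itgb3 and Itgb2 were higher in fetal liver, by a log2 fold change of 1.80 ± 0.46 (limma adjusted p 0.0196; 229 against 67.3 CPM on average) and 0.62 ± 0.16 (limma adjusted p 0.0199; 89.8 against 58.4 CPM). The other 8 subunits were not called, so that 2 of 10 were called, both higher, beside 3.38% of all genes called higher, 7.77% lower and 11.1% in all. Without WT bone marrow replicate 2 or WT fetal liver replicate 1 neither gene was called (Itgb3 1.81 and 1.54, Itgb2 0.65 and 0.53), and without WT fetal liver replicate 3 Itgb3 was not (1.86). Without WT bone marrow replicate 1, Itga4 (-0.48), Itga5 (-0.73) and Itgav (-0.62) were called lower in fetal liver.

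Among ETV6-RUNX1 cells, 6 of the 10 subunits were higher in fetal liver and none was lower, beside 10.4% of all genes called higher, 18.2% lower and 28.6% in all. Itgb3 averaged 978 CPM in fetal liver and 73.3 CPM in bone marrow, a ratio of 13.3 and a log2 fold change of 4.0 ± 0.46 (limma adjusted p 2.05e-05). Itgb2 averaged 181 and 25.6 CPM, a log2 fold change of 2.76 ± 0.16 (limma adjusted p 3.1e-08). Itga2 (2.49), Itga6 (1.23), Itgb1 (0.60) and Itga4 (0.46) were the other four. Itga4 lost its call without ETV6-RUNX1 bone marrow replicate 1 or 3 or any ETV6-RUNX1 fetal liver replicate (0.38 to 0.49, limma adjusted p 0.0543 to 0.116), and Itgal, at 1.03 (limma adjusted p 0.077), gained one without WT bone marrow replicate 1 (1.03) or ETV6-RUNX1 bone marrow replicate 2 (1.53). With the pseudogene covariate Itgb1 (0.42) and Itga4 (0.12) were not called and Itga5 was called lower in fetal liver (-0.87).

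The order of the 4 groups differed between subunits. For Itgb2 all neighbours were apart: ETV6-RUNX1 fetal liver was highest, then WT fetal liver, then WT bone marrow, then ETV6-RUNX1 bone marrow. For Itgb3 the fetal liver groups were separate from each other and from bone marrow, and the bone marrow groups overlapped. Itga5 and Itgav had their highest mean in ETV6-RUNX1 bone marrow, at 86.7 and 19.2 CPM, and overlapped there with ETV6-RUNX1 fetal liver, at 73.3 and 15.4 CPM. The libraries of all neighbouring groups overlapped for Itgal and Itgb7. In WT cells 2 subunits were higher in fetal liver without overlap (Itgb2, Itgb3) and Itgav was lower, beside 10.6% and 18.9% of all genes (29.5% in all). In ETV6-RUNX1 cells 6 were higher without overlap and none lower, beside 14.4% and 27.8% of all genes (42.2% in all).

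Since a receptor needs both chains, the levels per kilobase were also expressed as shares of the chain they belong to. Itgb3 made up 19.5 ± 4.35% (SD, n = 3) of the RNA of the 8 beta chains in WT cells of the bone marrow, 21.6 ± 13.2% in ETV6-RUNX1 cells of that source, 39.0 ± 6.82% in WT fetal liver and 59.0 ± 3.75% in ETV6-RUNX1 fetal liver. The shares of all 3 ETV6-RUNX1 fetal liver libraries, 54.8% to 62.0%, were above those of all other libraries. Itgb1 went from 28.4% in WT to 14.8% in ETV6-RUNX1 fetal liver although its own level was higher there, and was the leading beta chain in bone marrow, with 42.3% in WT and 51.7% in ETV6-RUNX1 cells. Among the 18 alpha chains, Itga2b led in every group, with 49.5% to 80.5% as group means. By mean, Itga5 came next in bone marrow (11.2% in WT and 18.9% in ETV6-RUNX1 cells, with Itga6 at 10.5% and 16.2%). The WT order rested on replicate 2 (11.3% and 8.44%), as Itga6 was above Itga5 in replicate 1 (13.2% and 12.4%) and level with it in replicate 3 (9.91% and 9.87%). Itga6 came next in fetal liver (7.64% and 12.3%, with Itga5 at 6.15% and 5.27%).

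**Figure D3:**
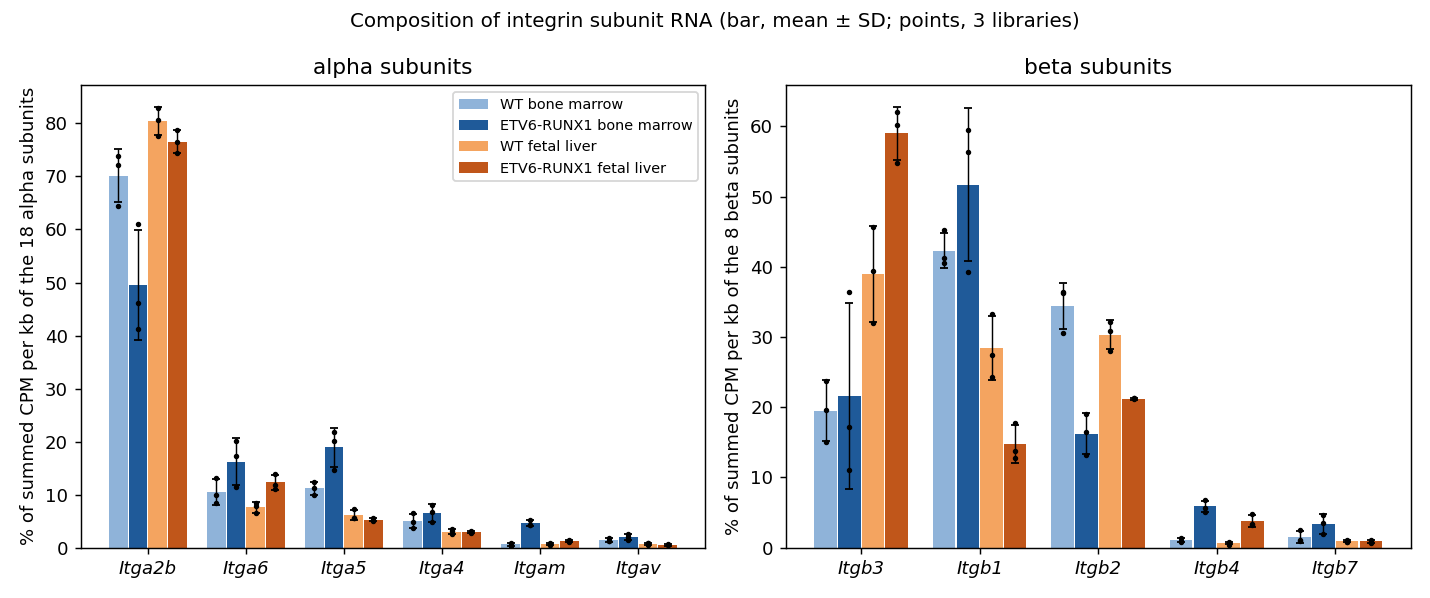
Share of each of the most abundant chains in the summed CPM per kb of the 18 alpha (left) and 8 beta (right) integrin subunits, as mean ± SD with the 3 libraries as points. Itgb3 goes from 19.5% of the beta chains in WT bone marrow to 59.0% in ETV6-RUNX1 fetal liver, and Itga2b is the largest alpha share in every group.

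Ratios of partner chains, both per kilobase, also varied between groups. The ratio of Itga2b to Itgb3 was 6.58 ± 1.11 (SD, n = 3) in WT cells of the bone marrow and 4.63 ± 1.18 in ETV6-RUNX1 cells there, 2.76 ± 0.221 in WT fetal liver and 1.33 ± 0.162 in ETV6-RUNX1 fetal liver. Libraries of the 2 fetal liver groups did not overlap, at 2.62 to 3.02 and 1.23 to 1.51. The ratio of Itga6 to Itgb1 was 0.359 ± 0.0382 in WT and 0.852 ± 0.0224 in ETV6-RUNX1 fetal liver, and 0.437 ± 0.0128 and 0.554 ± 0.0609 in bone marrow. That of Itga4 to Itgb1 was 0.141 ± 0.0111 in WT and 0.204 ± 0.00957 in ETV6-RUNX1 fetal liver, against 0.212 and 0.226 in bone marrow. Differences in these ratios were not tested.

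Itgb3 and its partner Itga2b are also known as genes of megakaryocytes. Markers of that cell type, like Itgb3, were higher in fetal liver, and highest in ETV6-RUNX1 fetal liver. Pf4 was the most abundant of them, with means of 2472 and 4816 CPM in WT and ETV6-RUNX1 fetal liver. The summed level of 13 megakaryocyte markers without Itga2b, such as Pf4 and Gp9, was 4060, 3050 and 4678 CPM in WT fetal liver and 7878, 8359 and 7389 CPM in ETV6-RUNX1 fetal liver. It was 1411, 1328 and 1720 CPM in WT and 743, 2106 and 529 CPM in ETV6-RUNX1 bone marrow. ETV6-RUNX1 bone marrow replicate 2, the highest adult library for Itgb3, was the highest for these markers too, and replicate 3 was the lowest for both. In ETV6-RUNX1 fetal liver, where Itgb3 measured 1086, 1101 and 747 CPM, replicate 2 was the highest and replicate 3 the lowest for both. Within the WT groups the orders differed. WT fetal liver replicate 3 had a higher sum than replicate 1 but less Itgb3 (204 and 318 CPM). WT bone marrow replicate 1 had a higher sum than replicate 2 but less Itgb3 (38.2 and 63.5 CPM). With Itga2b, 14, 14, 13 and 12 of the 14 markers reached a mean of 1 CPM in WT fetal liver, ETV6-RUNX1 fetal liver, WT bone marrow and ETV6-RUNX1 bone marrow, and none was at 0 in a whole group. The part of megakaryocyte transcripts in the Itgb3 differences was not tested.

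**Figure D4:**
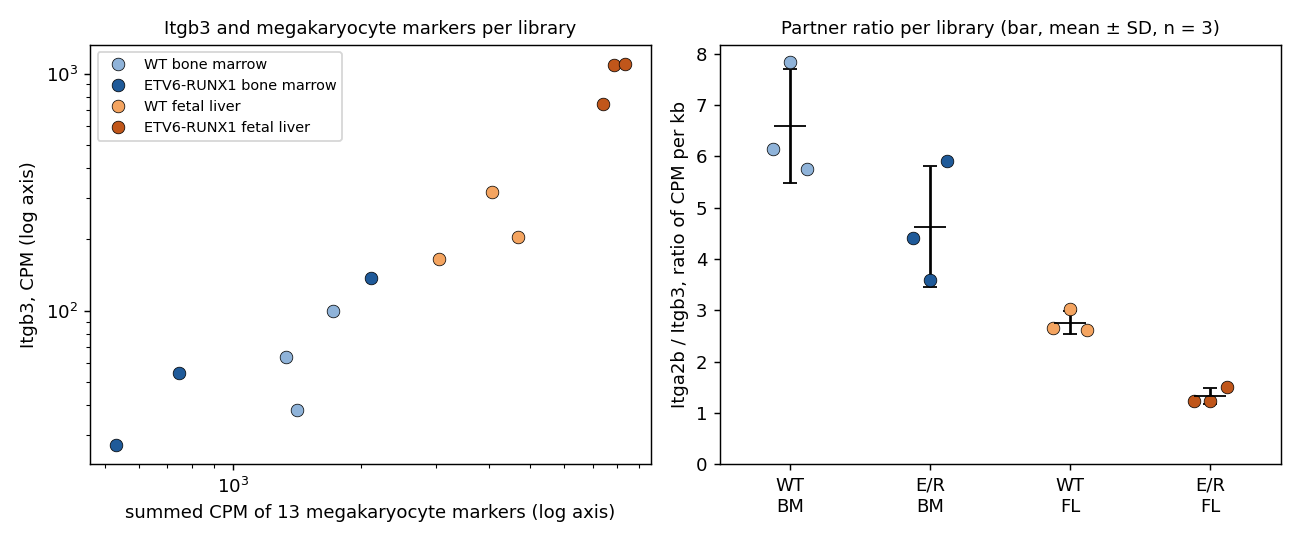
Left, Itgb3 in CPM against the summed CPM of 13 megakaryocyte markers in the 12 libraries (both axes logarithmic); right, the ratio of Itga2b to Itgb3 in CPM per kb with mean ± SD of 3. The ETV6-RUNX1 fetal liver libraries are at the upper right, with sums of 7389 to 8359 CPM, and their ratio of 1.33 is the lowest group mean.

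Macrophage markers and granulocyte and monocyte markers, like Itgb2, had higher sums in ETV6-RUNX1 than in WT fetal liver. Lymphoid markers did not, at 70.8 to 84.2 CPM in WT and 62.1 to 93.1 CPM in ETV6-RUNX1 fetal liver, where the groups overlapped. Bone marrow sums of the macrophage list and of the granulocyte and monocyte list are also given. Macrophage markers (12 genes, led by Cd68) summed to 41.4 to 49.5 CPM in WT and 119 to 142 CPM in ETV6-RUNX1 fetal liver, and to 42.9 to 60.8 and 98.1 to 122 CPM in bone marrow, so they were higher in ETV6-RUNX1 bone marrow, where Itgb2 was lower. Of the 12, 2, 5, 4 and 5 reached a mean of 1 CPM in these groups in that order, C1qa was at 0 in all but ETV6-RUNX1 bone marrow, Marco in all but ETV6-RUNX1 fetal liver, and C1qb was at 0 in both bone marrow groups. Granulocyte and monocyte markers (16 genes, led by Lyz2) summed to 445 to 554 CPM in WT and 683 to 881 CPM in ETV6-RUNX1 fetal liver. Lyz2 alone averaged 233 CPM in WT and 686 CPM in ETV6-RUNX1 fetal liver, and the rest of the list together was lower in ETV6-RUNX1. In bone marrow the 16 markers summed to 382 to 663 and 362 to 545 CPM, where the groups overlapped. The integrin subunit Itgam, a partner of Itgb2, is among these 16. A mean of 1 CPM was reached by 6, 7, 11 and 5 of them. Ly6g and S100a9 were at 0 in WT fetal liver and Ctsg and S100a8 at 0 in ETV6-RUNX1 fetal liver. Their part in the Itgb2 differences was not tested.

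Of 17 further integrin subunits in the table, 7 passed the filter on low levels. In both sources 4 were called higher in ETV6-RUNX1 cells and none lower, with a median log2 difference of 0.93 each time. Of all genes 24.8% were called higher in fetal liver and 14.4% in bone marrow. Itgb4, the beta chain that pairs with Itga6 in hemidesmosomes, measured 3.70, 3.81 and 4.56 CPM in WT and 73.8, 68.9 and 78.0 CPM in ETV6-RUNX1 fetal liver, and 4.25, 3.58 and 4.33 against 19.5, 25.6 and 19.6 CPM in bone marrow. Its log2 fold changes were 3.89 ± 0.17 and 2.15 ± 0.17 (limma adjusted p 1.67e-09 and 5.36e-06), and it was the only one of the 7 whose genotype effect was called different between sources (1.74 ± 0.24, limma adjusted p 0.000515). Itga6 and Itgb4 were thus both called higher in each source, though the bone marrow call of Itga6 was lost in 12 of 23 alternatives. The ratio of Itga6 to Itgb4 per kilobase was 17.3 ± 3.89 in WT and 3.29 ± 0.0606 in ETV6-RUNX1 fetal liver.

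Itgam, which pairs with Itgb2 in myeloid cells, rose in both sources, from 4.33 ± 0.946 to 18.4 ± 1.55 CPM in fetal liver and from 3.25 ± 2.17 to 22.2 ± 6.81 CPM in bone marrow (log2 fold change 1.87 and 2.53, limma adjusted p 0.00023 and 0.00021). Its partner Itgb2 fell in bone marrow, and the Itgam to Itgb2 ratio per kilobase was 0.0333 ± 0.0207 in WT and 0.525 ± 0.155 in ETV6-RUNX1 bone marrow. Itga2b rose in fetal liver, by 1.06 ± 0.37 (limma adjusted p 0.0316; 579 and 1178 CPM), and in bone marrow was at -0.60 (adjusted p 0.264). The fetal liver call of Itga2b was lost with edgeR (0.93, adjusted p 0.0502), DESeq2, the covariate (0.37) and without WT fetal liver replicate 2 or 3 or ETV6-RUNX1 fetal liver replicate 1 or 2 (0.92 to 1.03). Itga3 rose by 0.93 in both, and Itgae, a partner of Itgb7, by 0.97 in bone marrow. The Itga3 bone marrow call was lost in 8 of 22 alternatives. Among them were edgeR (1.17, adjusted p 0.105), DESeq2 (1.19, adjusted p 0.0627) and quantile normalization (0.66). It was also lost without WT bone marrow replicate 1 or ETV6-RUNX1 bone marrow replicate 2 (0.76 each). The Itga3 fetal liver call was lost in 4 of 22, among them without replicate 3 of either group (0.72 each). Itgb5 and Itgb6, at 0.730 to 1.53 and 1.42 to 3.80 CPM as group means, were not called in any comparison.

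Integrin ligands formed a list of 41 genes, of which 23 were tested. In fetal liver 13 were higher in ETV6-RUNX1 cells and 1 lower, with a median of 0.91, beside 24.8% and 18.3% of all genes. In bone marrow 8 were higher and 1 lower, with a median of 0.64, beside 14.4% and 4.93%. The adhesion protein gene F11r, which the Itgal and Itgb2 pair can bind, averaged 173 CPM in WT and 657 CPM in ETV6-RUNX1 fetal liver (log2 fold change 1.92, limma adjusted p 4.25e-08). The collagen IV genes Col4a1 and Col4a2 rose in both sources, by 1.66 and 1.80 in fetal liver and 1.06 and 1.38 in bone marrow. Icam1, the main ligand of Itgb2 integrins, rose in bone marrow from 28.5 ± 5.44 to 105 ± 34.6 CPM (1.81 ± 0.24, limma adjusted p 0.00037) and in fetal liver from 21.4 to 84.8 CPM (1.93, limma adjusted p 2.71e-05). Fn1, which encodes the fibronectin that Itga5 and Itga4 integrins bind, was the single ligand that fell in each source, by 0.77 in fetal liver and 1.46 in bone marrow (limma adjusted p 0.0329 and 0.00273). Fn1 was named after its values were seen, and its fetal liver call was lost without WT fetal liver replicate 1 or 2 or ETV6-RUNX1 fetal liver replicate 2 or 3 (-0.78 to -0.62).

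The genotype effect on ligands differed between sources for 6 of the 23, 5 with the higher value in fetal liver. Over all genes 9.19% were called in this test, 5.56% with the higher value in fetal liver. Those with the smallest adjusted p were F11r (1.26), Vwf (1.53), which is also in the megakaryocyte list, and the fibrillin gene Fbn1 (1.43). Thbs1 (3.92) and Postn (1.90), both matrix proteins, and Emilin1 (-1.31), with the higher value in bone marrow, were named after their values were seen (limma adjusted p 0.0208 to 0.0255). These last 3 changed with single libraries or the tool: Postn turned to -0.54 with edgeR and -0.69 with DESeq2, Thbs1 had an adjusted p of 0.106 with edgeR, and without ETV6-RUNX1 fetal liver replicate 2 all 3 lost the call (1.58, 3.84 and -1.22 for Postn, Thbs1 and Emilin1).

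Genes that act on the switching of integrins from inside the cell formed a list of 36, of which 33 were tested. The list mixes genes that switch integrins on with genes that restrain this, so its counts give no direction of integrin activity. In fetal liver 17 were higher and 3 lower in ETV6-RUNX1 cells (median 0.58), beside 24.8% and 18.3% of all genes, and in bone marrow 7 were higher and 1 lower (median 0.23), beside 14.4% and 4.93%. The tetraspanin gene Tspan32, known for tuning Itga2b and Itgb3 signalling in platelets, fell in both sources, from 587 ± 38.8 to 205 ± 46.5 CPM in fetal liver (-1.53, limma adjusted p 4.57e-06) and from 496 ± 58.9 to 279 ± 17.1 CPM in bone marrow (-0.82, limma adjusted p 0.00354). Another tetraspanin gene, Cd82, rose in both, by 1.85 and 1.31, as did the adaptor Dok1 in fetal liver (0.96) and Cd81 in bone marrow (0.62). The other two that fell in fetal liver, named after their values were seen, were Cytip (-1.04) and Slc3a2 (-0.29, limma adjusted p 0.0451), which binds integrin beta chains. Slc3a2 lost its call without any 1 of 10 of the 12 libraries.

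Between sources the genotype effect differed for 5 of these 33 genes, beside 9.19% of all genes. Fermt3, the kindlin of blood cells that binds integrin beta tails, had a difference of 0.95 ± 0.21 (limma adjusted p 0.0134), the talin gene Tln1 of 1.17 ± 0.28 (0.0188) and the filamin gene Flna of 1.34 ± 0.31 (0.0172), each with the higher value in fetal liver. Skap2 (0.67) and Slc3a2 (-0.65) were named after their values were seen. With the pseudogene covariate none of these 5 kept its call (limma adjusted p 0.101 to 0.370), and leaving out WT fetal liver replicate 2 ended the calls of all but Fermt3 (Flna 1.20, Tln1 1.00, Skap2 0.59 and Slc3a2 -0.63).

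Focal adhesion and outside-in signalling genes, which act after an integrin has bound, formed a list of 49, of which 47 were tested. In fetal liver 26 were higher and 1 lower (median 0.59), beside 24.8% and 18.3% of all genes, and in bone marrow 10 were higher and 1 lower (median 0.21), beside 14.4% and 4.93%. The scaffold gene Bcar1 went from 0.147 ± 0.117 to 3.36 ± 0.767 CPM in fetal liver, and Ilk, the integrin-linked kinase gene, from 0.756 ± 0.0603 to 4.55 ± 1.21 CPM (log2 fold change of 1.92 and 1.64 on the CPM + 1 scale). In bone marrow Bcar1 (1.26), the actin regulator Vasp (1.11) and Yes1 (1.07) had the smallest adjusted p. Rac2, in fetal liver (-0.43), and Nedd9, in bone marrow (-1.12), were the single genes that fell and were named after their values were seen; Rac2 lost its call without replicate 3 of either fetal liver group (-0.43 and -0.36) and Nedd9 without WT bone marrow replicate 2 or 3 or ETV6-RUNX1 bone marrow replicate 2 (-1.02 to -0.83). The effect differed between sources for 7 of the 47, beside 9.19% of all genes. All 7 had the higher value in fetal liver, beside 5.56% of all genes, among them Fgr (1.56) and Ilk (1.35). Ilk lost its call with edgeR (1.54, adjusted p 0.091) and DESeq2 (1.55, adjusted p 0.0808). A pseudocount of 0.1 (1.55) and the pseudogene covariate (1.17) also ended the Ilk call, and that covariate ended the Fgr call (1.32).

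**Figure D5:**
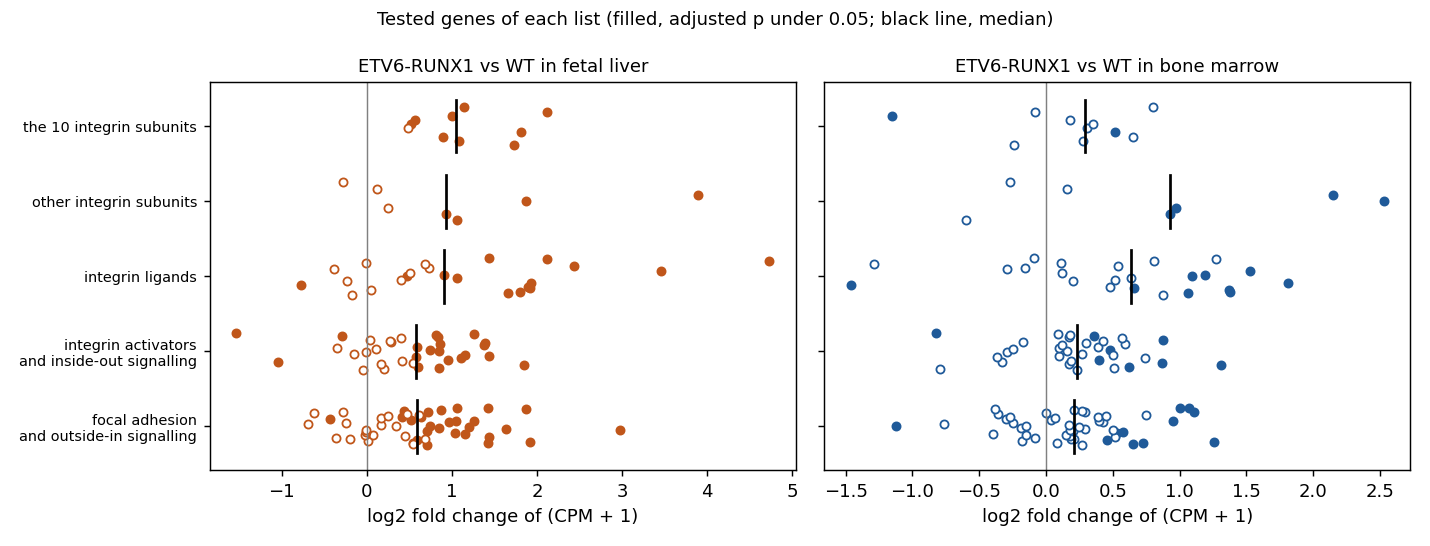
Log2 fold change of (CPM + 1), ETV6-RUNX1 over WT, of each tested gene in the 10 subunits and the 4 lists, in fetal liver (left) and bone marrow (right); filled points have an adjusted p under 0.05 and the black line is the median. In fetal liver the medians lie between 0.58 and 1.04, and in bone marrow between 0.21 and 0.93, beside 0.08 and 0.13 over all genes.

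The gene whose pattern over the 12 libraries was nearest to each subunit was found by the root mean square difference of log2(CPM + 1), each gene centred on its own mean. The closest matches were Fam84b for Itgav (0.09), Cflar for Itga4 (0.10), Clasp2 for Itga5 (0.11), Fbxw11 for Itgb1 (0.12) and Prkcq for Itga6 (0.20). Those of the other five differed more: AA986860 for Itgb2 (0.27), Scamp5 for Itgb3 (0.29), Zc3h12c for Itgb7 (0.29), Edem1 for Itga2 (0.30) and Rbpms2 for Itgal (0.33). No subunit had another of the 10 as its nearest gene. Subunits that vary little, such as Itgav, with an SD of 0.33 over the libraries, come near to many genes, whereas Itgb3 had an SD of 1.74.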

How the data were processed

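RNA was measured in 12 libraries of cultured mouse HSCs. Per the labels' protocols, total RNA was extracted with a single-cell kit and made into stranded libraries for small inputs, sequenced as read pairs. The authors deposited CPM per gene, and the submitters' processing notes name GRCm38, bcl2fastq, STAR 2.5.1a, Subread, featureCounts 1.4.6-p5, Salmon 0.8.2, edgeR and limma, without their roles; the use of strand is not given in the sources used here. Of 40757 entries, 276 repeats of a gene ID were dropped. The CPM steps of each library turned 100% of values into whole reads (tolerance 0.001) and gave library totals of 32.3 to 64.5 M.

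The 14271 genes that reached 1 CPM in 3 or more libraries were tested on log2(CPM + 1) with limma 3.58.1 in R 4.3.3 (lmFit, eBayes with trend), two-sided, with 4 group means, 8 residual degrees of freedom and Benjamini-Hochberg adjustment over all genes tested. The 5 comparisons were the genotypes within each source, their interaction, and the sources within each genotype. The script was tested on simulated data. Exon lengths and positions came from GENCODE M21.

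The 10 subunits and the lists were chosen with earlier results of these data known. Named from each list were the 3 called genes with the smallest adjusted p in the genotype comparisons and the interaction, every other subunit that was tested, and the nearest gene of each subunit. Genes named after their values were seen are said to be so, and 1 list gene that the rule names is not reported here. Alternatives were a pseudocount of 0.1, other filters, 2 other scalings, the replicate block, array weights, the pseudogene covariate, the compared libraries alone, each library left out, and edgeR 4.0.16 (quasi-likelihood, TMM) and DESeq2 1.42.0 on the recovered reads.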

Additional observations from a re-analysis of the deposited data

Results flagged for a closer look

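For 5 of the 10 integrin subunits the effect of the ETV6-RUNX1 genotype differed between fetal liver and bone marrow cells by the test of that difference (fetal liver effect minus bone marrow effect, log2 scale, limma with Benjamini-Hochberg adjustment). The differences were 2.14 for Itgb2, 2.20 for Itgb3, 1.97 for Itga2, 1.29 for Itga6 and 0.80 for Itga4. Only the call of Itgb2 held in every alternative. The call was lost in 15 of 22 alternatives for Itgb3, 10 of 22 for Itga4, 5 of 21 for Itga2 and 1 of 22 for Itga6. Over all genes 9.19% were called in this test, 5.56% with the higher value in fetal liver. Itgb2 was higher in ETV6-RUNX1 fetal liver and lower in ETV6-RUNX1 bone marrow, in 3 of 3 libraries each time without overlap. Itga6 was called higher in both, with its bone marrow call lost in 12 of 23 alternatives. Itga2, Itga4 and Itgb3 were called in the fetal liver comparison and not in the bone marrow one. Groups of 3 libraries are too small for the check on a single library far from the others.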

How the results depend on the processing

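The 50 subunit results (10 genes in 5 comparisons) were recomputed 1130 times under alternatives: 1012 kept their direction and side of the threshold, 74 lost a call, 18 gained one and 26 turned in direction. Of 24 called results 10 held under every alternative run for them. The called counts moved as follows. In fetal liver the 9 calls became 5 with the pseudogene covariate and 7 to 9 when single libraries were left out. In bone marrow the 2 calls became 1 with all genes with a read, median-of-ratios scaling, the replicate block, the compared libraries alone, edgeR and DESeq2, 4 with the covariate, and 1 to 4 with single libraries left out. The 5 interaction calls became 3 with a pseudocount of 0.1, a filter on a mean of 5 CPM, edgeR and DESeq2, 2 with all genes with a read, 1 with the covariate, and 3 to 5 with single libraries left out. In WT cells the 2 calls between sources became 0 with all genes with a read (1098 of 29278 genes called), 5 with array weights (2 higher, 3 lower) and 0 to 5 with single libraries left out; in ETV6-RUNX1 cells the 6 stayed between 5 and 7. The cause was not tested, except that the filter on a mean of 5 CPM tests only 8 of the 10 subunits.

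Itga6 between sources in WT cells, at -0.07, became 0.03 with median-of-ratios scaling, 0.00 with quantile normalization, 0.03 with edgeR and 0.02 with DESeq2. Under the covariate Itgal in fetal liver became -0.15, Itgb3 in bone marrow 0.60, and the interactions of Itga5, Itgal and Itgb7 -0.53, -0.99 and -0.13. The interaction of Postn became -0.54 with edgeR and -0.69 with DESeq2. Leaving out single libraries gave ranges across 0 for Itgal (-0.19 to 0.61), Itga2 (-0.60 to 0.01) and Itgb3 (-0.68 to 0.47) in bone marrow, for the interactions of Itgal (-0.12 to 0.68) and Itgb7 (-0.09 to 0.70), for Itgb7 (-0.18 to 0.50) and Itga6 (-0.22 to 0.12) between sources in WT cells and for Itgb7 in ETV6-RUNX1 cells (-0.01 to 0.76). None of the subunit results in this paragraph was called; the Postn interaction was. Over all genes, the interaction count of 1311 became 3637 with array weights, 767 with all genes with a read, 483 with the covariate, and 731 and 2332 without WT bone marrow replicate 2 and 1.

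Libraries with the same number did not deviate together (correlations of their deviations from the group means between -0.44 and 0.22, and not every library was closest to its own number), so the numbers were not taken as pairs. The fit with the replicate number as a block called 9, 1, 4, 2 and 6 subunits in the order above. Of 47 other named results 28 held under every alternative. Itga2, with 0 to 46 reads per bone marrow library, rests on few reads there.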
